A study of Mus musculus with 9 samples.

Results

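Expression of 10 genes of astrocytes (Gfap, Vim, Aqp4, Slc1a2, Slc1a3, Aldh1l1, S100b, Gja1, Glul and Etnppl) was examined in the mouse hippocampus at 2 ages and, among the older mice, with and without cognitive decline. The genes were taken by symbol, and each was read from its probe set with the highest mean. Of the 10 genes, 9 had a named probe set, 1 each, among 19505 named genes on the array, and Glul, the glutamine synthetase gene, had none and has no value here. Male C57BL6 mice (C57BL/6NCrSlc in the study's methods) were used, 3 in each group and 9 in all, each with 1 array of RNA from whole hippocampus taken after perfusion with saline. The p1 group (mice 7, 19 and 20) was young with normal cognition, the p2 group (mice 3, 8 and 18) was adult with normal cognition, and the p3 group (mice 2, 6 and 11) was adult with cognitive decline. By the study's methods p1 mice were 11 weeks old and p2 and p3 mice 47 weeks old. The labels mark p3 by the suffix D after Old, which was read as decline. The p3 mice were the adult mice that scored lowest when the results of a Y-maze and an open field test were ranked, so p2 and p3 were separated by behaviour and not by an intervention.

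Astrocytes are the glial cells that surround synapses and blood vessels. They take up glutamate and potassium released by neurons, move water at the endfeet that wrap vessels, pass ions and metabolites to each other through gap junctions, and hand glutamine back to neurons. In the hippocampus, radial glia of the dentate gyrus share Gfap with astrocytes, and Vim is also made by endothelial, ependymal and microglial cells. Reactive astrocytes are known for increased Gfap and Vim.

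Values are log2 array signals, so a difference of 1 is a change by a factor of 2, and a level cannot be set against that of another gene because each probe set binds with its own strength. In p2, values were measured for 6291 of 22206 probe sets only, since the other 71.7% of each p2 column lie on a straight line when sorted and were dropped. Among the listed genes, those with p2 values all lie on chromosomes 1 to 5. Shares over the 6291 probe sets therefore need not stand for the whole array. This left Vim, Slc1a2 and Etnppl with values in all 9 mice, and Gfap, Aqp4, Slc1a3, Aldh1l1, S100b and Gja1 with values in p1 and p3 only. A difference was called when it passed the threshold that the study used, with limma as the test: more than 1.5-fold (0.585 on the log2 scale) at an unadjusted p under 0.05. No probe set of any comparison reached a Benjamini-Hochberg adjusted p under 0.05 (0 of 22206 for p3 against p1, with a smallest adjusted p of 0.729, and 1267, or 5.71%, at an unadjusted p under 0.05, and 0 of 6291 in each comparison with p2), and every call below is therefore unadjusted.

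Array correlations lay between 0.990 and 0.995. Marker genes of neighbouring structures set 2 mice apart. The choroid plexus genes, 16 of 17 with a probe set, had a median of 3.58 above the other mice in p1 mouse 19 and 3.22 above in p3 mouse 11, while the remaining p1 and p3 mice lay between -1.91 and -1.22. The thalamus genes, 14 of 14, were 2.23 above in p3 mouse 11 and between -0.65 and -0.47 in the rest of p1 and p3. The summed level of the choroid plexus genes ranged from 13.12 to 19.17 in p1 and from 10.77 to 19.29 in p3. Without these 2 mice, the p3 against p1 difference was 0.25 for Gfap, -0.02 for Vim, 0.04 for Aqp4, 0.18 for Slc1a2, 0.24 for Slc1a3, 0.19 for Aldh1l1, 0.09 for S100b, 0.02 for Gja1 and 1.46 for Etnppl on the log2 scale, and Etnppl alone passed the threshold described above, as it did with all mice.

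The signal of these genes was set against 1414 probe sets of olfactory and vomeronasal receptor genes, taken as a largely silent background. The highest of these had a mean of 10.74, so not all were silent, and their 99th percentile was 6.53. The 9 astrocyte genes were above this percentile in every mouse that measured them, and the lowest single value was 7.61, for Aldh1l1 in p1 mouse 7. Of the other genes named below, Des, Lmnb1, Shmt1, S100a6, Timp1, Lcn2, Aspg, Gbp2, B3gnt5 and Sphk1 were under it in every mouse. So were Steap4, S1pr3, Hspb1 and Cxcl10, and Phykpl, H2-D1, Iigp1, Psmb8, Clcf1, Tgm1, Emp1, Slc10a6 and Cd14, in the mice that measured them. Differences of all these genes are between signals that did not clear this background. Prox1 and C1ql2, which mark granule cells of the dentate gyrus, were between 11.78 and 13.19 and between 9.53 and 11.37 in the 9 mice.

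Promoter windows of the genes were read from RefSeq (build GRCm38.p6) so that the start sites of the genes described can be seen. The windows run from 250 bases before to 30 after the annotated start. The window of Etnppl is shown because it was the gene that passed the threshold, that of Gfap because it is the classical astrocyte gene, and that of Slc1a3 because it was the other gene with a STAT-type motif. Capitals mark matches, on either strand, to the STAT motif TTCNNNGAA or the TATA motif TATAAA.
Etnppl: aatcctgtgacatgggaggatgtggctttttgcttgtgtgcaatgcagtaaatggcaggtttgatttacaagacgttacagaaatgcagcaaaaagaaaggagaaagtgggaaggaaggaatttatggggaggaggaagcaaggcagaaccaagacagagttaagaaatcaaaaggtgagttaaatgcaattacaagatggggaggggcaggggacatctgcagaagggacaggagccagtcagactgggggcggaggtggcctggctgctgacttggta
Gfap: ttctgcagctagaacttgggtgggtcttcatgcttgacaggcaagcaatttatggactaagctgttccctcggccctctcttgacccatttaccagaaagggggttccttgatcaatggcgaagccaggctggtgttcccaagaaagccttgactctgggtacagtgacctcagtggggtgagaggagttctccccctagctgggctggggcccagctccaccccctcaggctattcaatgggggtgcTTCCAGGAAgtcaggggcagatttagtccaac
Slc1a3: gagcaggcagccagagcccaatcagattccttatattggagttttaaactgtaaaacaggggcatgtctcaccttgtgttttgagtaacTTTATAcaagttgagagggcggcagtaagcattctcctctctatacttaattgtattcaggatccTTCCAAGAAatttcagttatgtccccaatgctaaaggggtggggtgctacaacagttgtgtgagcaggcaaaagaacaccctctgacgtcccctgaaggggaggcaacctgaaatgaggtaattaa
The Etnppl window is at chr3:130617198-130617477 on the plus strand, that of Gfap at chr11:102897171-102897450 on the minus strand, and that of Slc1a3 at chr15:8710778-8711057 on the minus strand. Each sequence is written 5′ to 3′ along its gene. Etnppl has a pair of annotated start sites with 1 window each, and neither window held TTCNNNGAA, TATAAA, the AP-1 motif TGANTCA or the CCAAT box. Gfap held TTCCAGGAA, which begins at -2 from the start site. Slc1a3 held TTCCAAGAA at -96 and TTTATA, the TATA motif on the opposite strand, at -161. The STAT motif was found in 2 of 10 windows of the astrocyte genes shown or searched (Aqp4 was not searched) and in 7.83% of 32851 mouse windows of the same length, and TATAAA in 2 of 10 and in 13.1%. The CCAAT box was found in 5 of 10 and in 36.1%, and TGANTCA in 1 of 10 (Gja1, at -19) and in 7.46%. These matches describe the letters of the windows only.

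Between young and declining adult mice, 8 of the 9 astrocyte genes differed by at most 0.21 on the log2 scale and did not pass the threshold, and 1, Etnppl, was 2.46-fold higher in p3. This compares with 1.70% of all 22206 probe sets past the threshold in p3 against p1, 0.941% higher and 0.757% lower in p3. Of the 9 genes 1, Etnppl, had an unadjusted p under 0.05. The median difference over the 9 genes was 0.08 (from -0.02 to 1.30), beside 0.00 over all probe sets with a median absolute difference of 0.14. The mean was higher in p3 for 8 genes and lower for 1, Aqp4, against 50.5% of probe sets with a higher mean in p3. Because whole tissue was measured, fewer cells of a type and less RNA per cell cannot be told apart in any of these values. The p3 and p1 mice differ in both age and cognition, so these cannot be told apart in p3 against p1. Genes without p2 values have no other comparison.

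**Figure D1:**
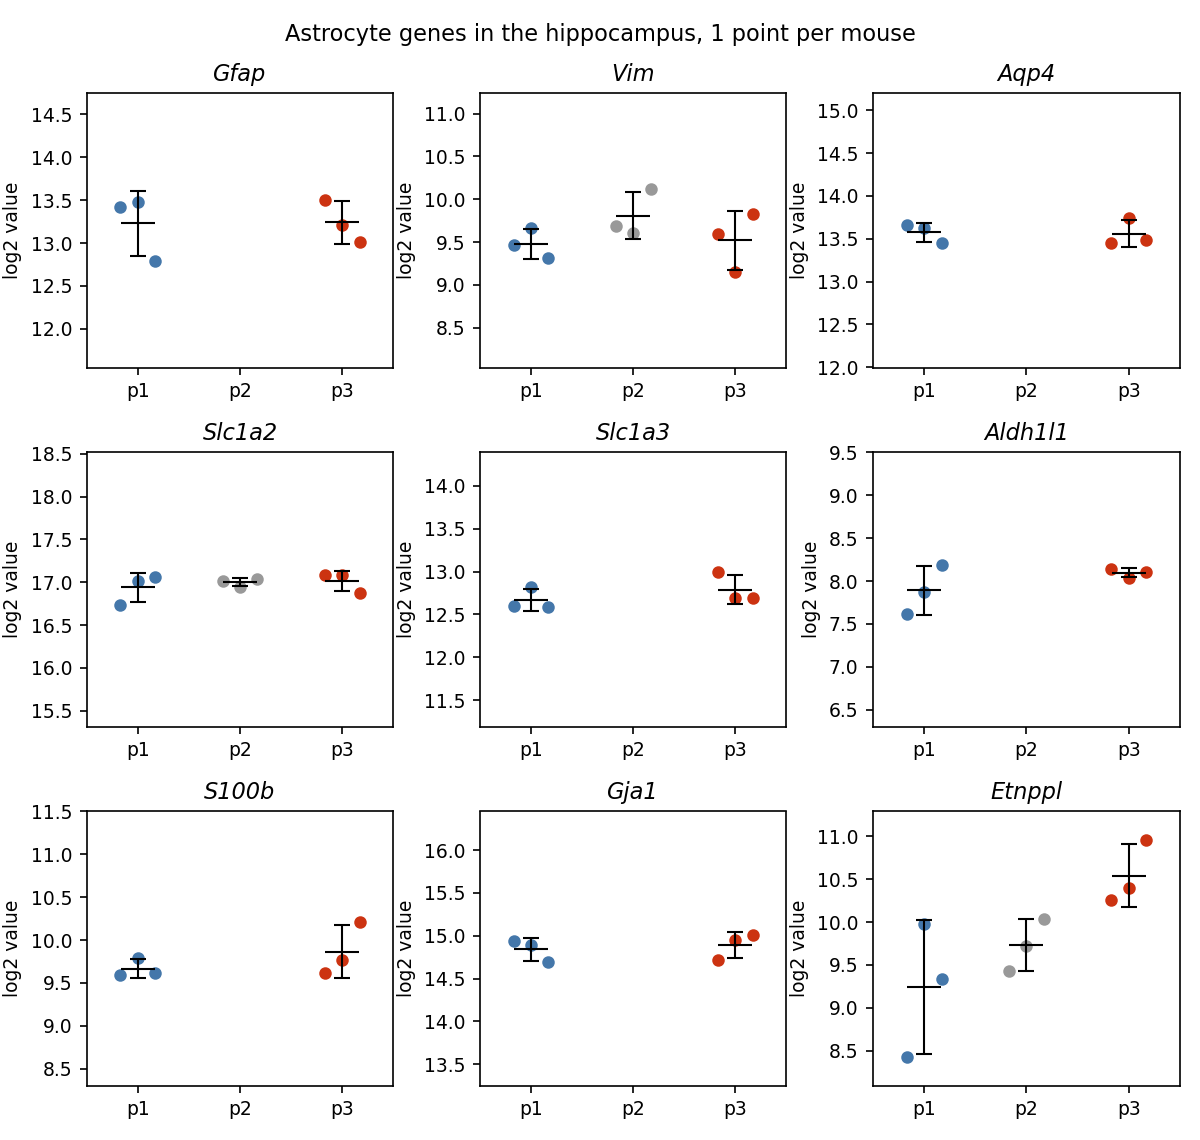
Log2 signal of the 9 astrocyte genes with a probe set in each mouse (1 point a mouse, bars at the group mean), for p1, p2 and p3. Etnppl is the gene whose 3 p3 mice (10.26 to 10.96) all lie above the p1 mice (8.42 to 9.98), and 6 genes have no p2 values.

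Etnppl encodes ethanolamine-phosphate phospho-lyase, which breaks down phosphoethanolamine, a building block of membrane phospholipids, and in mouse brain is made largely by astrocytes. Its log2 signal was 8.42, 9.98 and 9.33 in p1 mice 7, 19 and 20, 9.43, 9.72 and 10.04 in p2 mice 3, 8 and 18, and 10.26, 10.40 and 10.96 in p3 mice 2, 6 and 11. All 3 p3 mice were above all 6 other mice, while p1 and p2 overlapped, with p1 mouse 7 the lowest of all and p1 mouse 19 above 2 of the p2 mice. The means were 9.24 ± 0.78, 9.73 ± 0.31 and 10.54 ± 0.37 (SD, n = 3 each), so the spread in p1 was the widest.

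In p3 against p1 the difference of Etnppl was 1.30 (SE 0.35, 95% interval 0.52 to 2.08, which is 1.43- to 4.22-fold, limma p = 0.00403, adjusted p = 0.86, exact permutation p = 0.1, the smallest that 3 mice against 3 allow). It was 1 of 2316 probe sets, 10.4%, whose p1 and p3 mice did not overlap, and only 7 probe sets (0.0315%) had a difference as high or higher, itself included. By p it was 80th of 22206.

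In p3 against p2, between adult mice of 1 age, the difference was 0.81 (SE 0.35, 95% interval 0.03 to 1.59, 1.02- to 3.01-fold, limma p = 0.0434, adjusted p = 0.853, exact permutation p = 0.1), which passed the threshold as a 1.75-fold difference. In this comparison 1.54% of 6291 probe sets passed (0.954% higher and 0.588% lower in p3), 5.33% had an unadjusted p under 0.05, and the mice of 11% did not overlap, and 26 probe sets (0.413%) had a difference as high or higher. By p it was 288th of 6291. This call was lost, with an unadjusted p no longer under 0.05, without p2 mouse 3 (0.66), p2 mouse 8 (0.81), p3 mouse 6 (0.88) or p3 mouse 11 (0.60).

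In p2 against p1, between mice of normal cognition at both ages, the difference of Etnppl was 0.49 (SE 0.35, 95% interval -0.29 to 1.27, adjusted p = 0.999 by limma, exact permutation p = 0.4) and did not pass. The mice of p1 and p2 did not overlap in 8.71% of 6291 probe sets, 1.29% passed (0.715% higher and 0.572% lower in p2) and 4.26% had an unadjusted p under 0.05. Here p1 mouse 19 and p1 mouse 7 decided the value: without mouse 19 it was 0.85 and passed, and without mouse 7 it was 0.07. Over the 3 genes measured in p2, the mean was higher in p2 than in p1 for 3 (48.8% of all probe sets), with a median difference of 0.33 and 0 past the threshold. In p3 against p2 the mean was higher in p3 for 2 of 3, Slc1a2 and Etnppl (51.7% of all), with a median of 0.02. The 3 comparisons share mice (p3 against p1 and p2 against p1 share p1, and the comparisons with p2 share p2), so their values are given side by side and not as separate evidence.

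The choroid plexus and thalamus genes moved with part of this pattern. P3 mouse 11, with the highest choroid plexus genes in p3 and the highest thalamus genes of p1 and p3, had the highest Etnppl of all (10.96), and p1 mouse 19, with the highest choroid plexus genes in p1, had the highest Etnppl of p1 (9.98). The order was not the same in the remaining mice, since p3 mice 2 and 6 (10.26 and 10.40) were above p1 mouse 19 with choroid plexus genes below the other mice. Without both mouse 19 and mouse 11 the p3 against p1 difference was 1.46 and passed. With the mean of the 5 choroid plexus genes measured in all mice as a covariate it was 1.38 and passed. In p3 against p2 the difference without both mice was 0.60 and did not pass. In p2 against p1 the difference passed without both mice (0.85) and with the covariate (0.69). The covariate rests mainly on p1 mouse 19 (10.18) and p3 mouse 11 (9.98), with 5.3 to 6.88 in the other mice. The thalamus genes were not used as a covariate. The part that bordering tissue had in the Etnppl values was not tested.

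Granule cell genes also differed between mice, and were set beside Etnppl after the values were seen. Prox1 was 13.19, 12.25 and 12.01 in p1, 13.18, 12.55 and 11.78 in p2 and 11.90, 12.10 and 12.12 in p3. It was highest in p1 mouse 7 and p2 mouse 3, the mice lowest in Etnppl within their groups, and so was C1ql2 (11.21 and 11.37, with 9.53 to 10.64 in the other mice). Prox1 did not run opposite to Etnppl in all mice. Within p3 both were lowest in mouse 2 and highest in mouse 11, and p1 mouse 20 was below p1 mouse 19 in both. C1ql2 was lowest in p1 mouse 19 (9.70) within p1 and in p3 mouse 11 (9.53) within p3, the mice highest in Etnppl of those groups. In p3 against p2, C1ql2 differed by -0.81 (SE 0.39, adjusted p = 0.853 by limma, exact permutation p = 0.1) with no overlap, beside 0.81 for Etnppl, and it did not pass the threshold. Without p1 mouse 7 the Etnppl difference in p3 against p1 was 0.89 and passed, and without p2 mouse 3 that in p3 against p2 was 0.66 and did not. The part that the share of dentate gyrus in a sample had in these values was not tested.

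**Figure D2:**
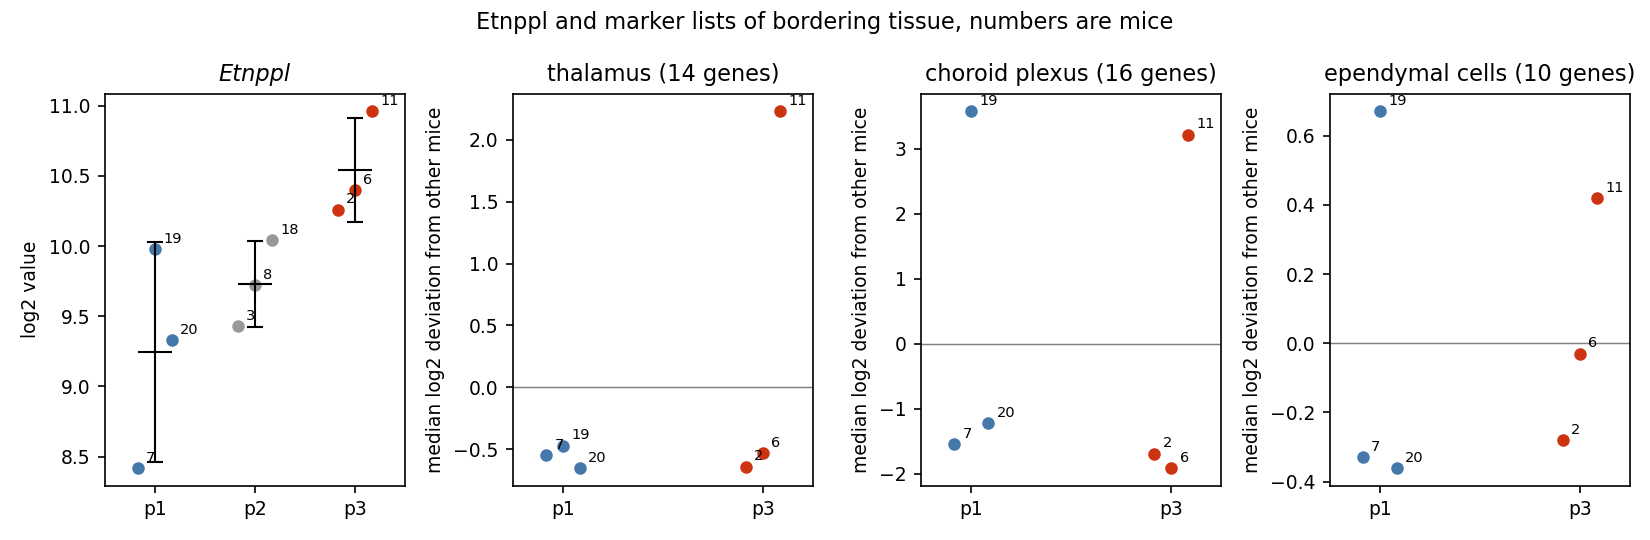
Log2 signal of Etnppl in each mouse of all groups, and, for p1 and p3, the median deviation of the thalamus, choroid plexus and ependymal marker genes from the other mice, in log2 units (numbers are mice). P1 mouse 19 and p3 mouse 11 stand apart in the choroid plexus genes (3.58 and 3.22), and p3 mouse 11 in the thalamus genes (2.23).

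**Figure D3:**
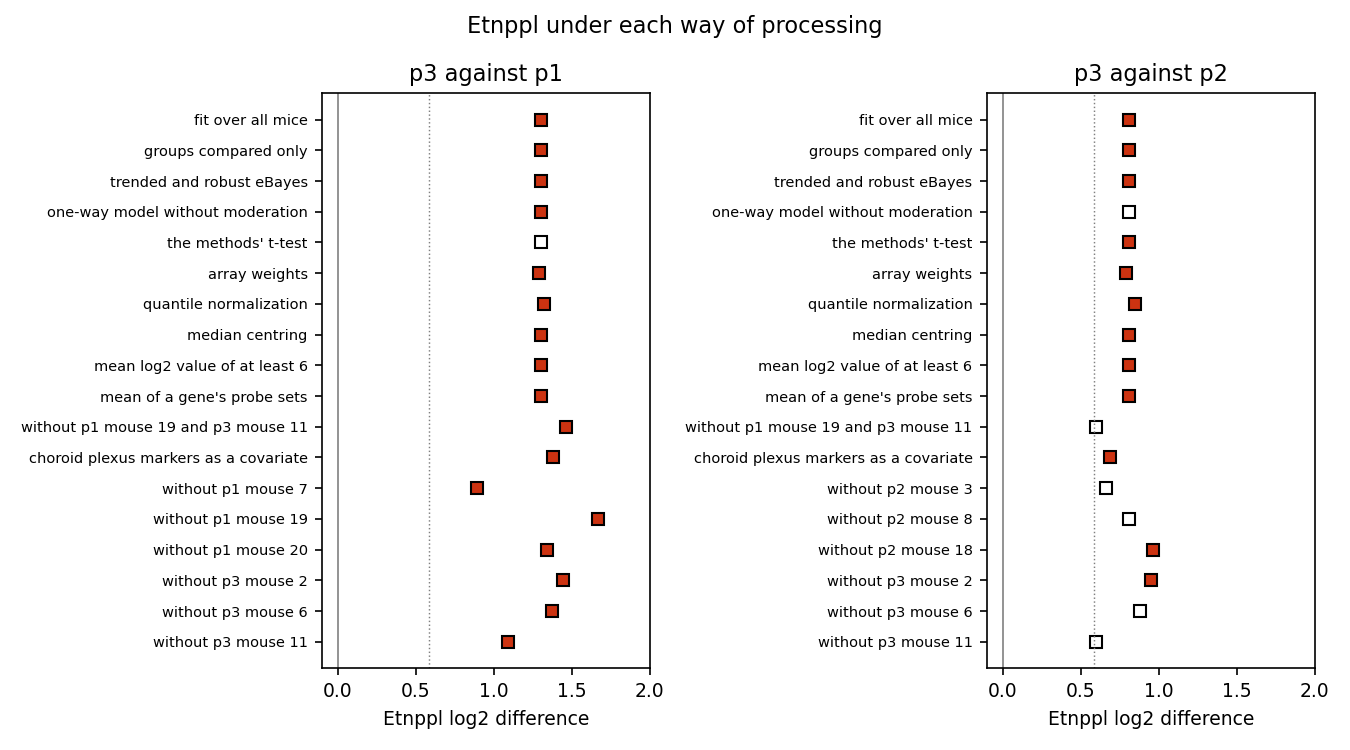
Difference of Etnppl in log2 units under each processing alternative and with each mouse left out, for p3 against p1 and p3 against p2, with filled points past the study threshold and a dotted line at 1.5-fold. In p3 against p1 the values with 1 mouse left out run from 0.89 to 1.67, and in p3 against p2 from 0.60 to 0.96.

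Etnppl was also set against the other astrocyte genes of the same array, which removes any scale the array puts on all of them. Etnppl minus the mean of the other 8 was -3.83, -2.41 and -2.88 in p1 mice 7, 19 and 20 and -2.12, -1.93 and -1.44 in p3 mice 2, 6 and 11. The groups did not overlap on this scale either. With Vim and Slc1a2 as the reference, which can be done in all mice, the values were -4.69, -3.36 and -3.85 in p1, -3.92, -3.56 and -3.54 in p2 and -3.07, -2.72 and -2.39 in p3. The p3 mice were again above the 6 others, and p2 lay within the range of p1. These are descriptions without a test.

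Gfap, the intermediate filament protein of astrocytes, had a log2 signal of 13.42, 13.48 and 12.79 in p1 mice 7, 19 and 20 and of 13.50, 13.21 and 13.01 in p3 mice 2, 6 and 11. The groups overlapped, with p1 mouse 20 the lowest. The means were 13.23 ± 0.38 and 13.24 ± 0.25 (SD, n = 3 each), a difference of 0.01 (SE 0.22, adjusted p = 0.995 by limma, exact permutation p = 0.9) with a 95% interval from -0.50 to 0.52, which is 0.71- to 1.44-fold. A difference past the 1.5-fold threshold lies outside that interval in both directions, and the sign turned to -0.21 without p1 mouse 20.

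Vim, the filament protein that joins Gfap in reactive and immature astrocytes, was 9.47, 9.66 and 9.31 in p1, 9.69, 9.61 and 10.12 in p2 (mouse 18 the highest) and 9.59, 9.15 and 9.83 in p3. All 3 groups overlapped, and p3 held the lowest mouse. The means were 9.48 ± 0.18, 9.81 ± 0.27 and 9.52 ± 0.34 (SD, n = 3 each). The difference was 0.04 in p3 against p1 (interval -0.42 to 0.50, adjusted p = 0.986), 0.33 in p2 against p1 (interval -0.13 to 0.79, adjusted p = 0.999) and -0.28 in p3 against p2 (interval -0.74 to 0.18, adjusted p = 0.854), all by limma. None passed (exact permutation p = 0.9, 0.2 and 0.4), and the p2 against p1 value was 0.17 without p2 mouse 18. A 1.5-fold difference lies within the p2 against p1 and p3 against p2 intervals, and outside that of p3 against p1.

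The other filament genes and their partners, 5 of 6 with a probe set, held no call in p3 against p1 (median 0.05, from -0.20 to 0.12). Des, the muscle filament desmin, was between 2.92 and 3.85 in the 9 mice, below the median of 3.91 of the silent receptor genes. Lmnb1, a nuclear lamin, differed by 0.12 (SE 0.15).

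Slc1a2, the main glutamate transporter of the forebrain, was 16.74, 17.02 and 17.06 in p1, 17.01, 16.95 and 17.04 in p2 and 17.08, 17.09 and 16.88 in p3. The 9 mice lay close together, p1 mouse 7 being the lowest. The means of p1 and p3 were 16.94 ± 0.17 and 17.02 ± 0.12 (SD, n = 3 each), the SD of p2 was 0.05, and the limma differences were 0.08 (interval -0.23 to 0.39, adjusted p = 0.956) in p3 against p1, 0.06 (interval -0.25 to 0.37, adjusted p = 0.999) in p2 against p1 and 0.02 (interval -0.29 to 0.33, adjusted p = 0.992) in p3 against p2. A 1.5-fold difference lies outside all 3 intervals.

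Slc1a3, the glutamate transporter of radial glia and Bergmann glia as well as astrocytes, was 12.60, 12.82 and 12.59 in p1 and 12.99, 12.69 and 12.69 in p3. P3 mouse 2 was the highest, and p1 mouse 19 was above the other p3 mice. The difference was 0.12 (SE 0.16, interval -0.24 to 0.48, adjusted p = 0.931 by limma, exact permutation p = 0.5). The glutamate and glutamine cycle genes, 7 of 9 with a probe set, held no call (2 with a higher and 5 with a lower mean in p3, median -0.10). Slc38a5, a glutamine transporter of astrocytes, had the value farthest from 0 among them, -0.41 (SE 0.26).

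Aqp4, the water channel of the endfoot, was 13.66, 13.62 and 13.45 in p1 and 13.45, 13.74 and 13.49 in p3. The 2 groups overlapped throughout. The difference was -0.02 (SE 0.15, interval -0.36 to 0.33, adjusted p = 0.992 by limma, exact permutation p = 0.9), and it was 0.04 without p1 mouse 19 and p3 mouse 11.

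Of the channel, anchor and pump genes that work beside Aqp4 at the endfoot, 9 of 11 had a probe set, with 5 higher and 4 lower means in p3 and a median of 0.04. Kcnj16, a potassium channel subunit that pairs with Kcnj10, alone passed the threshold. Kcnj16 was 10.21, 10.81 and 10.71 in p1 and 11.09, 11.67 and 11.17 in p3, with no p2 value, and all p3 mice were above all p1 mice (no overlap, as in 10.4% of all probe sets). The difference was 0.73 (SE 0.22, 1.66-fold, adjusted p = 0.86 by limma, exact permutation p = 0.1). The call was lost without p1 mouse 7 or p3 mouse 6 (0.55 each). Clcn2, a chloride channel, was 0.42 (SE 0.19) and Dag1, the dystroglycan that anchors the Aqp4 complex, was -0.27 (SE 0.14), and neither passed.

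Gja1, the gap junction protein connexin 43, was 14.94, 14.89 and 14.69 in p1 and 14.72, 14.95 and 15.01 in p3. The groups overlapped, and p1 mouse 20 and p3 mouse 2 were the lowest pair. The difference was 0.05 (SE 0.15, interval -0.30 to 0.40, adjusted p = 0.975 by limma, exact permutation p = 0.5). The other connexins, 3 of 4 with a probe set, held no call, and Gjb6, which is the other main astrocyte connexin, differed by 0.15 (SE 0.14).

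Aldh1l1, the folate enzyme widely used to mark astrocytes, was 7.61, 7.87 and 8.19 in p1 and 8.14, 8.04 and 8.11 in p3. The p3 mice were within 0.10 of each other while the p1 mice spread over 0.58, with mouse 20 above all p3 mice. The difference was 0.21 (SE 0.18, interval -0.20 to 0.61, adjusted p = 0.907 by limma, exact permutation p = 0.4), and it was 0.07 without p1 mouse 7 and 0.36 without p1 mouse 20. A 1.5-fold difference upward lies within the interval, whose upper end is 1.53-fold. Of the other folate enzymes, 8 of 9 had a probe set and none passed (4 higher, 4 lower means). Shmt1, the cytosolic serine hydroxymethyltransferase, was 0.23 (SE 0.16).

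S100b, a calcium-binding protein of astrocytes and of some oligodendrocyte lineage cells, was 9.59, 9.79 and 9.61 in p1 and 9.61, 9.77 and 10.21 in p3. P3 mouse 11 alone stood above the p1 mice. The difference was 0.20 (SE 0.19, interval -0.22 to 0.62, adjusted p = 0.913 by limma, exact permutation p = 0.6), and 0.03 without that mouse. The upper end of the interval is 1.54-fold, so a 1.5-fold difference upward lies within it. The other S100 genes, all 7 measured in every group, held no call in any comparison (median -0.08 in p3 against p1). S100a6 was -0.48 (SE 0.23) and S100a1 was -0.27 (SE 0.17) in p3 against p1.

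**Figure D4:**
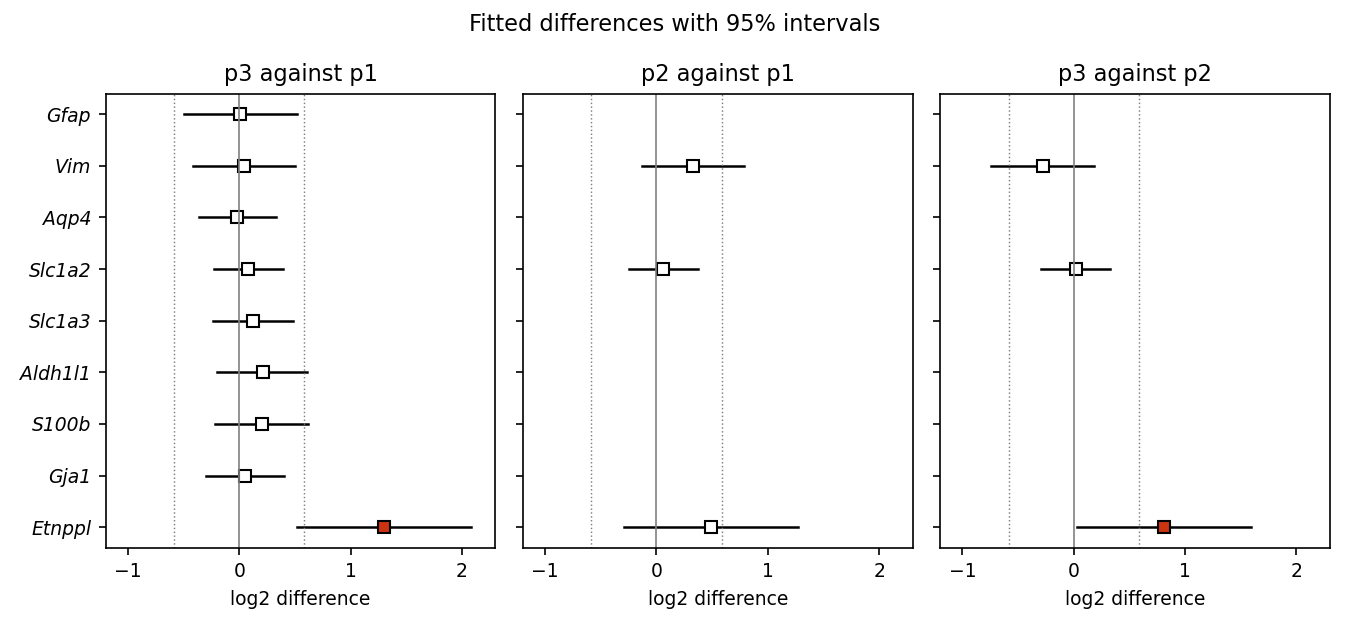
Difference of each astrocyte gene in log2 units, with its 95% interval, for p3 against p1, p2 against p1 and p3 against p2. In p3 against p1 the Etnppl interval (0.52 to 2.08) lies above 0, and the intervals of the other 8 genes hold 0.

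A list of ethanolamine phosphate and phospholipid genes was set beside Etnppl. It holds genes that make or use ethanolamine phosphate or its CDP form. It also holds Phykpl (-0.13, SE 0.23), a lyase related to Etnppl that acts on another substrate. Of the 8 symbols listed 5 had a probe set and none passed, with a median of -0.13 (from -0.18 to 0.10). Ept1, listed without a probe set, is an older symbol of Selenoi. Selenoi, which uses the CDP form of ethanolamine to make phosphatidylethanolamine, was 12.25, 12.43 and 12.28 in p1, 12.22, 12.16 and 12.23 in p2 and 12.01, 12.27 and 12.25 in p3. The difference was -0.14 in p3 against p1 (SE 0.13) and -0.03 in p3 against p2 (SE 0.13).

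Other genes enriched in astrocytes, 31 of 32 with a probe set, had a median of 0.05 in p3 against p1 (20 higher, 11 lower means), and 1 passed, downward. This was Fabp7, a fatty acid carrier of radial glia and young astrocytes, which was 13.49, 13.53 and 13.84 in p1 and from 12.83 (mouse 2) to 13.16 (mouse 6) in p3. All p3 mice were below all p1 mice. The difference was -0.62 (SE 0.16, 0.65-fold, adjusted p = 0.86 by limma, exact permutation p = 0.1), and the call was lost without p1 mouse 20 (-0.51) or p3 mouse 2 (-0.54). Fabp7 was also on the list of radial glia and neural stem cell genes, of which 2 of 8 passed, both lower in p3, the other being Thbs4 (-0.73, SE 0.24), where 0.757% of all probe sets passed downward. Slc14a1, a urea transporter, was 0.45 (SE 0.16, unadjusted p under 0.05) and Agt, the angiotensin precursor, was 0.46 (SE 0.22), and both lay under the fold threshold. The p1 and p3 mice of Slc14a1 and of Agt did not overlap. Nor did those of Atp1b2, Fgfr3, Aldoc and Ndrg2, higher in p3, or of Ntsr2 and Ppp1r3c, lower in p3. Over all probe sets, the p1 and p3 mice of 10.4% did not overlap.

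Reactive genes are those raised in mouse astrocytes after injury. Of the 11 pan-reactive genes, 8 had a higher and 3 a lower mean in p3 than in p1, and none passed (median 0.16, from -0.23 to 0.66). Over all probe sets 50.5% had a higher mean in p3. Lcn2, a secreted lipocalin, was 0.66 (SE 0.32), Timp1, a metalloprotease inhibitor, was 0.36 (SE 0.15, unadjusted p under 0.05) and Aspg was 0.42 (SE 0.24). Timp1 was between 2.86 and 3.39 in p1 and p3, below the silent-gene median of 3.91, and all but 1 of the Lcn2 values (4.67 in p3 mouse 6) were below it too. No change in expression is read from these signals, nor from those of Aspg, all under 6.53. Steap4, S1pr3, Hspb1 and Cxcl10 were also under 6.53 in every mouse that measured them. The count of means and the median of this list therefore rest largely on signals under that background. Cp (0.16, SE 0.19) and Serpina3n (-0.10, SE 0.21) were above it in every mouse that measured them.

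The genes raised after lipopolysaccharide, 10 of 12 with a probe set, held no call in p3 against p1 (median 0.06). Gbp2, an interferon-induced GTPase, was 5.97, 6.43 and 6.46 in p1, 6.43, 6.49 and 5.95 in p2 and 5.82, 5.65 and 5.83 in p3. All p3 mice were below the 6 others, with differences of -0.52 (SE 0.19) from p1 and -0.52 (SE 0.19) from p2, both with an unadjusted p under 0.05 and short of the fold threshold. All 9 values lay under the 6.53 of the silent genes, so no change in expression is read from them. H2-D1, Iigp1 and Psmb8, of the same list, were also under 6.53 in every mouse that measured them. Fbln5 was 0.49 (SE 0.32) and Srgn 0.30 (SE 0.16) in p3 against p1. Only p3 mouse 11 (6.95) had an Fbln5 value above 6.53, and the lowest Fbln5 difference with 1 mouse left out was 0.14. The genes raised after ischaemia, 12 of 12, held no call in p3 against p1 (median -0.10). B3gnt5 and Sphk1, named from this list, lay under 6.53 in every mouse that measured them, and no difference is read from them. Clcf1, Tgm1, Emp1, Slc10a6 and Cd14 lay under it too, so the median of this list rests largely on signals under that background.

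Ptgs2, the cyclooxygenase that neurons also induce with activity, was the ischaemia-type gene that passed in p3 against p2. It was 8.83, 8.93 and 9.09 in p1, 9.69, 9.17 and 9.24 in p2 and 8.74, 9.36 and 8.20 in p3. P2 mouse 3 was the highest and p3 mouse 11 the lowest, and p3 mouse 6 was above 2 p2 mice. The difference was -0.60 (SE 0.26, adjusted p = 0.853 by limma, exact permutation p = 0.3) and was -0.18 (SE 0.26) in p3 against p1. The call in p3 against p2 was lost in 11 of 17 alternatives, among them those without p2 mouse 3 (-0.44), p2 mouse 18 (-0.66), p3 mouse 2 (-0.59) or p3 mouse 11 (-0.32).

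Among lipid carriers, 6 of 6 with a probe set, none passed in p3 against p1. Apod, an apolipoprotein of glia, was 0.43 (SE 0.18, unadjusted p under 0.05), and Lcat, which esterifies cholesterol, was -0.28 (SE 0.16). For both genes the p1 and p3 mice did not overlap, as in 10.4% of all probe sets. Scd1, a fatty acid desaturase, was 0.32 (SE 0.18). Of the astrocyte transcription factors, 10 of 10, none passed (median -0.03), with Sox9, a regulator of astrocyte fate, at 0.19 (SE 0.20) and Id3 at -0.26 (SE 0.23).

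Over the 13 lists beside the 10 genes, 116 of 128 distinct symbols had a probe set, with Ept1 and Selenoi counted apart. In p3 against p1 1 gene passed upward and 1 downward, 1.72%, near the 1.70% of all probe sets. At an unadjusted p under 0.05 there were 6, or 5.17%, near 5.71%. Their median difference was 0.01. In p2 against p1 0 of 39 genes passed and 0 had an unadjusted p under 0.05, while 1.29% of all 6291 probe sets passed, and in p3 against p2 1 of 39 passed (2.56%), while 1.54% of all did.

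**Figure D5:**
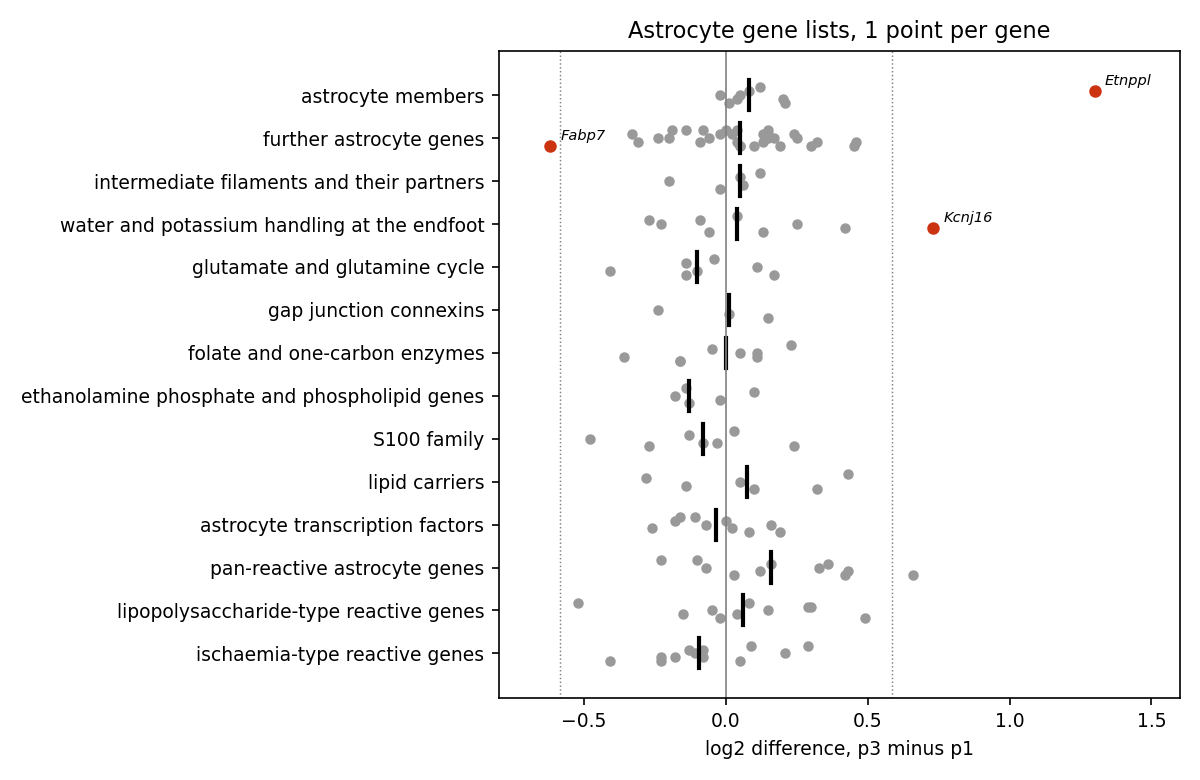
Difference in p3 against p1, in log2 units, of the genes of each list, with 1 point a gene and a bar at the median. The medians run from -0.13 for the ethanolamine phosphate and phospholipid genes to 0.16 for the pan-reactive genes. Most of the pan-reactive and most of the ischaemia-type genes lay under the 99th percentile of the silent genes in every mouse that measured them.

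Cell types that share some of these genes were read from their own markers. Over all probe sets in p3 against p1, 50.5% had a higher mean in p3, 0.941% passed the threshold upward and 0.757% downward. Microglia, which share Vim, had 10 of 11 genes with a higher mean in p3 than in p1 and none past the threshold (median 0.18). Endothelial genes had a median of 0.01, and oligodendrocyte genes, which share S100b, one of -0.25, with none past the threshold in p3 against p1 in either list. In p2 against p1, 1 of 4 measured oligodendrocyte genes passed, Cldn11, a tight junction protein of myelin (-0.71, SE 0.27), where 1.29% of all probe sets did. The groups overlapped in Cldn11, with p1 mouse 20 (11.87) below p2 mouse 3 (11.97) and p1 mice 7 and 19 higher (12.85 and 13.04). Ependymal genes, which share Vim and S100b, were 0.67 above the other mice in p1 mouse 19 and 0.42 above in p3 mouse 11, and between -0.36 and -0.03 in the rest of p1 and p3 (in p2, where 2 of the genes were measured, between -0.25 and 0.43). All of the 10 measured but Tmem212 and Ak7 lay under 6.53, the 99th percentile of the silent genes, in every mouse that measured them. Ak7 was above it only in p1 mouse 19 (6.61) and p3 mouse 11 (6.54). The ependymal deviations therefore rest largely on signals under that background. In oligodendrocyte precursors 2 of 7 genes passed, both lower in p3 (Gpr17 -0.88 and Bmp4 -0.68), and in pericytes and meningeal fibroblasts 1 of 14, higher in p3 (Dcn 1.66). In the thalamus list 13 of 14 genes had a higher mean in p3, and 1 passed, Ntng1. The higher means came mainly from p3 mouse 11, where 14 of 14 were above the other mice, against 1 in p3 mouse 2 and 0 in p3 mouse 6. The part these cells had in any astrocyte value was not tested.

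Per mouse, the median deviation of the astrocyte genes from the other mice was -0.16, 0.06 and -0.18 in p1 mice 7, 19 and 20 and 0.12, 0.06 and 0.14 in p3 mice 2, 6 and 11. The 3 p3 values were at or above the highest p1 value, with p1 mouse 19 equal to p3 mouse 6. In p1 mice 7, 19 and 20, 3, 8 and 2 of the 9 genes were above the other mice, and in p3 mice 2, 6 and 11 it was 6, 6 and 5.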

How the data were processed

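Hippocampal RNA of 9 mice was measured on Clariom S mouse arrays (Affymetrix) after labelling with the WT Plus kit. The log2 values per probe set are those the authors deposited after normalizing in the Transcriptome Analysis Console. How background was corrected and probes were combined, and the genome build, is not given in the sources used here. In the p2 columns, values with more than 2 decimals, 15915 of 22206 per mouse, lie on a straight line when sorted (largest gap 5.02e-10) and were set to missing. By the annotation of the platform 19572 probe sets have 1 symbol, 0 several and 2634 none, and each of the 19572 matched the gene table by Entrez ID.

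Group means over the 9 mice were fitted by lmFit of limma 3.58.1 in R 4.3.3 and moderated by eBayes with 4.22 prior degrees of freedom, beside 6 residual ones, or 4 where p2 was missing. The Benjamini-Hochberg adjustment ran over all probe sets of a comparison, and intervals are at 95%. The fit was tested on simulated data. The labels name no slide or scan date, which left no batch to test, and 3 mice a group limit the precision. The genes, the 13 further astrocyte lists and the 10 marker lists were chosen with earlier results of these data known. All 10 genes were to be described, and from each other list up to 3 genes, first those past the threshold, then by the smallest p in p3 against p1. Marker genes of other cells were named where they passed the threshold. Beyond this rule, some genes were named to give the limit of a count, a median or an overlap. Alternatives were the samples in the fit, the moderation, the methods' t-test, array weights, normalization and a filter at a mean log2 of 6. Others were the fold threshold, the call rule, each mouse left out, and the mean of 5 choroid plexus genes measured in all mice as a covariate. Python 3.11.15 with matplotlib 3.10.9 drew the figures.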

Additional observations from a re-analysis of the deposited data

How the results depend on the processing

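The Etnppl difference in p3 against p1 kept its direction in the 17 alternatives that refitted it, mice left out included, and passed the threshold in 16. With a one-way model without moderation, nearest to the analysis of variance that the methods name for the arrays, it passed (1.30). With the methods' t-test, unpaired with equal variances and named in their general statistics, it was 1.30 and did not pass, and the count of astrocyte genes past the threshold in p3 against p1 fell from 1 to 0. With an adjusted p under 0.05 as the call rule it was 0 as well. In p3 against p2 the count was 1, and 0 with a fold over 2, with an adjusted p under 0.05, with the one-way model (Etnppl 0.81) and without p1 mouse 19 and p3 mouse 11. In p2 against p1 the count was 0, and 1 without those mice and 1 with the choroid plexus covariate. The median difference in p3 against p1 was 0.18 without those mice. With 1 mouse left out, the counts ran from 0 to 1 in p2 against p1 and in p3 against p2, and the medians from 0.04 to 0.17 in p3 against p1, from 0.07 to 0.42 in p2 against p1 and from -0.02 to 0.09 in p3 against p2.

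Values near 0 changed sign. Without p1 mouse 19 and p3 mouse 11, Vim was -0.02, Aqp4 0.04 and Ptgs2 0.09 in p3 against p1, and Aqp4 was 0.02 with quantile normalization. With 1 mouse left out, in p3 against p1, Gfap ran from -0.21 to 0.14, Vim from -0.11 to 0.23, Aqp4 from -0.11 to 0.04, Slc1a2 from -0.02 to 0.14, Gja1 from -0.02 to 0.14, Des from -0.36 to 0.04 and Ptgs2 from -0.48 to 0.10. Slc1a2 ran from -0.04 to 0.12 in p2 against p1 and from -0.02 to 0.09 in p3 against p2. The cause of these changes was not tested. No paired analysis was possible because the groups share no mouse numbers.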
